A study of Homo sapiens with 27 samples.

Results

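The response of A549 cells to cisplatin was read from the 3′ ends of cytosolic poly(A)+ RNA in 6 libraries, 3 from cells given cisplatin and 3 from cells given the vehicle DMSO, out of 27 libraries in the series. The series asks how cisplatin changes short transcripts that end inside a gene relative to those that reach its last exon. A549 is an established line of non-small cell lung cancer. Cisplatin was given at 100 µM with DMSO in parallel, and the time of exposure is not given in the sources used here. Both groups share the line, the medium and the cytosolic extract. The other libraries used for comparison are 6 from the cytosol of A549R cells, 6 from heavy polysomes of A549 cells (messenger RNA carrying many ribosomes) and 6 from whole H358 cells, another line of this cancer, each set holding 3 cisplatin and 3 DMSO libraries. What the R in A549R stands for is not spelled out in the labels, and nothing says whether libraries of a group came from separate cultures, so the p-values measure the spread between these libraries.

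Cisplatin forms platinum crosslinks between bases of DNA. Such adducts stall RNA polymerase II and activate p53, the transcription factor that switches on genes for cell cycle arrest, repair and apoptosis. A polymerase that stalls, or that ends its transcript at an early poly(A) site, leaves the far end of a gene unread, and a long gene offers more places for either. The method used here, 3′-seq, counts reads at the poly(A) end of each transcript, so several ends of a gene are measured apart.

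Each library came with its own list of peaks, here called ends, with a read count for each. Peaks overlapping on a strand over the 6 lists merged into 70544 ends, of which 23269 stood in all 6 lists and were tested. Total counts were 5186010, 5377638 and 3372128 in the DMSO libraries numbered 1 to 3 and 4040461, 5484796 and 3739215 in the cisplatin libraries. Values below are CPM, read counts scaled to the depth of each library with the trimmed mean of M values (TMM), and changes are log2 of cisplatin over DMSO with their standard error (SE). Positions are hg19, counted from 1. Gene names were placed on hg19 from general knowledge of where genes end, because no annotation of that build was used here, and whether an end lies in an exon or an intron is not stated.

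The libraries numbered 3 stood apart from the others in both groups. EPCAM, an epithelial adhesion protein, stood at 33.9, 28.6 and 1.91 CPM in the DMSO libraries and at 34.9, 33.3 and 1.80 CPM in the cisplatin libraries. Over all tested ends, 323 were at least 2-fold lower and 314 at least 2-fold higher in the third library than in the mean of the other two, in both groups, against 158 and 60 for the libraries numbered 1 and 115 and 37 for those numbered 2. Among markers of the labelled line, AKR1B10 (2879 to 10918 CPM over the 6 libraries) and ALDH1A1 (1362 to 3897 CPM) were abundant. They are a pair of aldehyde-metabolising enzymes that A549 makes in large amounts. The keratin KRT18 was abundant too (1580 to 6585 CPM). Of 7 epithelial markers only 3 had a tested end, and KRT19, CDH1, CLDN4 and MUC1 were listed in some libraries only. The same held for CES1, another marker of the line. Of the other cell types, 0 of 4 endothelial markers had a tested end. Among fibroblast markers only COL1A1 was tested (1.8 to 4.8 CPM), and among leukocyte markers only CD68 (16.6 to 47.2 CPM), which macrophages and many epithelial tumour lines make. PTPRC, CD3E and LYZ, also leukocyte markers, had no listed end within 2 kb of the placed position.

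Some of the RNAs that mark the line and the extract changed with cisplatin. Of 6 tested A549 line markers 4 fell, AKR1B10 (-0.43), the keratins KRT8 (-0.55) and KRT18 (-0.60) and ALDH1A1 (-0.90). The keratins are general epithelial markers and stand in the epithelial list too. ALDH3A1, an aldehyde dehydrogenase, rose by 1.09, from 896, 1098 and 719 CPM to 2258, 2453 and 1236 CPM, and without the pairing 1 of the 6 rose and 1 fell. Of 6 RNAs taken as markers of the nucleus 3 had a tested end. NEAT1 (-1.62) and PVT1 (-2.21) fell, with and without the pairing, and TUG1 was not called (-0.12). Summed over these 3 ends, the level was 143, 164 and 114 CPM in DMSO and 75.5, 51.1 and 41.4 CPM in cisplatin, with no overlap. The next tested end upstream of PVT1 lay 359819 bases away, a long stretch such as stands before several of the largest falls below. The sum is therefore not a measure of nuclear RNA alone. The part of nuclear RNA in the results below was not tested.

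Cisplatin changed ends in both directions. With same-numbered libraries as pairs, 2010 of 23269 ends rose (8.64%) and 2328 fell (10.0%) at an adjusted p of 0.05 in edgeR's quasi-likelihood test. Without the pairing the same test called 1084 ends, 488 risen and 596 fallen. Without the pair numbered 3 the paired test called 3546, and without the pair numbered 2 it called 1952. When ends listed in at least 2 libraries of each group were taken in, with an unlisted value set to 0, only 22 of 33101 passed. An unlisted end is not a count of 0 in these lists, which hold only 31.6% to 35.2% of their own peak numbers, so the calls below are for ends listed in all 6 libraries. The median change of all tested ends was -0.0028 on the log2 scale, and in 27.4% of them the 3 cisplatin values did not overlap the 3 DMSO values.

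**Figure D1:**
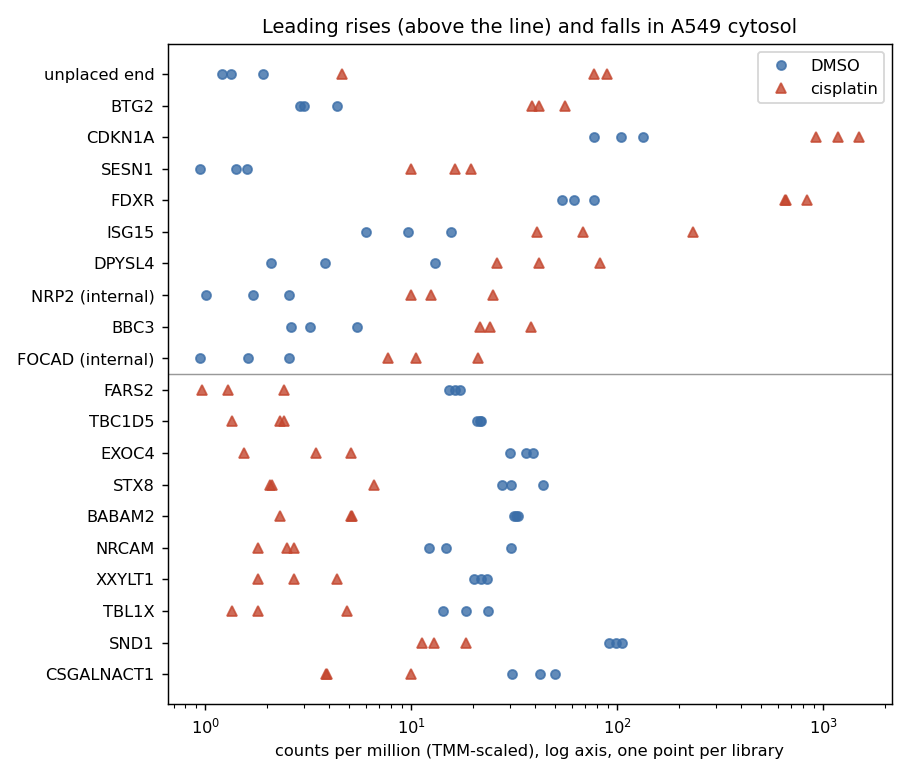
TMM-scaled CPM, on a log axis, of the 10 largest rises and 10 largest falls among ends that passed the naming rule, one symbol per library (circles DMSO, triangles cisplatin). The groups do not overlap at any of the 20 ends, which the rule required, and the unplaced end has 1 cisplatin library at 4.62 CPM and the others at 77.4 and 89.1.

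Genes that p53 is known to switch on rose as a group. Of 34 genes in the list, 31 had a tested end at their 3′ end. Of these 26 rose, none fell and 5 were not called, with a median change of 2.10, against 8.64% of all tested ends risen and a median of -0.0028. Without the pairing 24 rose, and 26 or 27 rose when any pair was left out. The list was chosen with earlier results of these data known, so its direction is not independent evidence. Summed over the 31 ends, the level was 1053 to 1211 CPM in DMSO and 4719 to 6437 CPM in cisplatin.

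CDKN1A, the inhibitor of cyclin-dependent kinases that holds cells before division, ended at chr6:36653514-36655201 on the plus strand. Its end stood at 77.2, 134 and 104 CPM in DMSO and at 926, 1178 and 1501 CPM in cisplatin. The lowest cisplatin library was far above the highest DMSO library, and the change was 3.52 ± 0.13 (SE, n = 3 pairs, adjusted p = 9.7e-11). FDXR, a mitochondrial ferredoxin reductase, stood at 54.0, 61.9 and 77.2 CPM in DMSO and at 651, 663 and 836 CPM in cisplatin, a change of 3.48 ± 0.11 (adjusted p = 1.2e-11) and the smallest adjusted p in the list. BTG2, an antiproliferative gene, rose from 3.01, 4.35 and 2.87 CPM to 38.5, 41.6 and 55.5 CPM, a change of 3.66. In each of these 3 genes every cisplatin library stood above every DMSO library, which the naming rule required.

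Other members of the p53 list rose too. SESN1, a stress-induced regulator of growth signalling, went from 1.40, 0.95 and 1.59 CPM to 10.0, 16.3 and 19.5 CPM. TP53I3, an oxidoreductase, went from 100.3 ± 32.4 CPM (SD, n = 3) to 596 ± 142 CPM (n = 3). Its nearer upstream end, 3368 bases before the last, rose less, by 1.77 against 2.59 on the log2 scale. GADD45A, a damage-induced gene, rose from a mean of 35.3 to 179 CPM. PHLDA3, an inhibitor of AKT, rose by 2.10 and SERTAD1, a regulator of cyclin D kinase, by 2.88.

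The feedback arm of p53 rose as well. MDM2, the ligase that marks p53 for destruction, had a pair of tested ends 1218 bases apart. The upstream end stood at 7.22, 6.62 and 8.61 CPM in DMSO and at 48.8, 47.1 and 45.3 CPM in cisplatin, and the downstream end at 2.41, 1.89 and 1.91 CPM and at 16.7, 11.3 and 11.4 CPM. The changes were 2.67 and 2.65, and the upstream end held 78.3% of the counts of these ends in DMSO and 78.2% in cisplatin. PPM1D, a phosphatase that turns the damage signal off, rose by 2.70 from a mean of 1.9 to 13.3 CPM.

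Death genes followed. BBC3, which encodes the BH3-only protein PUMA, stood at 2.61, 3.22 and 5.42 CPM in DMSO and at 21.6, 24.1 and 38.1 CPM in cisplatin, with no overlap. FAS, a death receptor, rose by 2.66 and BAX, the pore-forming member of the family, by 1.37 from 283 to 733 CPM. TNFRSF10A, another death receptor, was not called: its 3 cisplatin libraries stood at 29.3, 30.1 and 174 CPM against 45.5, 11.7 and 14.99 CPM in DMSO (change 1.35, adjusted p = 0.059). At TIGAR, a regulator of sugar use, the end near the placed position was not called either, with a change of -0.47. A stronger end 4733 bases upstream on the same strand rose by 1.44 (adjusted p = 0.00022). It lies outside the 2 kb window for a name and may also belong to TIGAR, so a rise of this gene is not excluded. The share of the placed TIGAR end in the counts of both went from 34.1% to 12.6% (log2 change -1.93, adjusted p = 0.0023). At POLH, the polymerase that copies past platinum adducts, the last end was not called (0.77, adjusted p = 0.11), whereas the ends 3734 and 2583 bases upstream rose by 1.97 and 2.23.

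The promoter windows of these genes were searched for the p53 response element, a pair of 10-base motifs side by side, which reads the same on both strands. RefSeq gives 42 promoters (GRCh38.p14, a different build from the ends) for 28 of the 34 genes. With the 4 core bases of the element matched and up to 2 other mismatches, 4 of the 42 promoters, from 3 genes, held a match in the 250 bases before the start, or 9.52%, against 0.242% of all 35116 promoters. With at most 1 mismatch none of the 42 matched, and 0.0513% of all promoters did. The match at MDM2 is a single stretch counted in a pair of overlapping promoters. The list holds known p53 targets chosen with earlier results known, so the contrast with all promoters is not independent evidence. All matching genes are shown, and each rose in cisplatin (AEN, a nuclease, by 1.07, FAS by 2.66 and MDM2 by 2.67). Capitals mark the match, 5′ to 3′ on the strand of the gene, at chr15:88621301-88621330, chr10:88991304-88991333 and chr12:68808918-68808947, all on the plus strand. A match is only letters in a window, not a shown site.
AEN: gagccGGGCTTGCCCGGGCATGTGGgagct
FAS: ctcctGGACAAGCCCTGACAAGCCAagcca
MDM2: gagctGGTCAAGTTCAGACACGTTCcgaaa

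Some interferon-stimulated genes rose too. Of 18 genes 10 had a tested end, of which 5 rose, none fell, and the median change was 0.59, against 8.64% of all tested ends risen. Without the pairing 3 rose. ISG15, a ubiquitin-like protein, stood at 9.63, 6.05 and 15.6 CPM in DMSO and at 40.6, 67.8 and 233 CPM in cisplatin, at chr1:949712-949924 on the plus strand. Its change was 3.18 ± 0.25 (adjusted p = 6.0e-07), and the third cisplatin library was the highest by far. IRF7 and IRF1, transcription factors of the interferon pathway, rose by 2.48 and 2.08. OAS1 (-0.14), another interferon target, was not called. IFIT2, IFITM1 and MX1 had no listed end within 2 kb of the placed position.

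**Figure D2:**
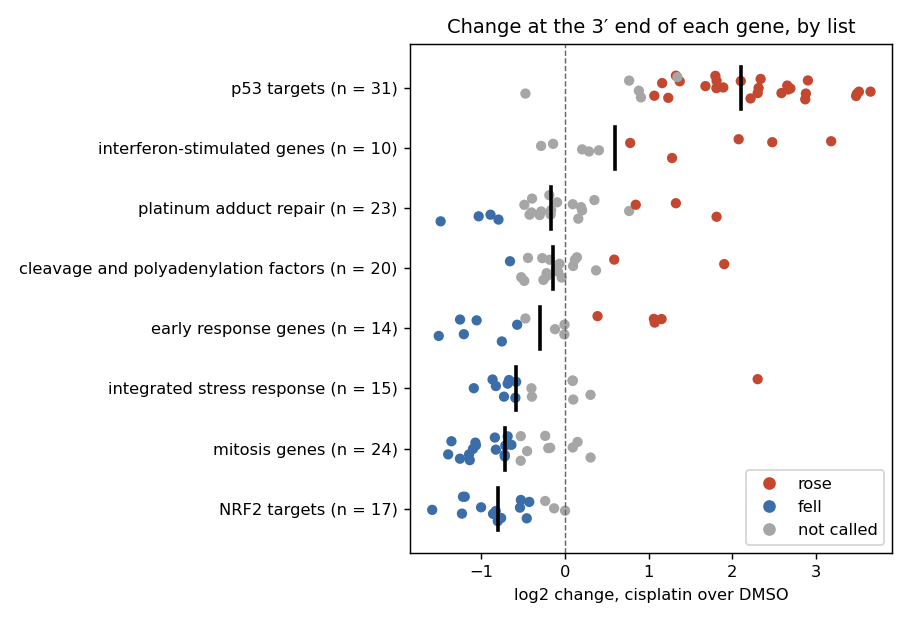
Log2 change at the 3′ end of each tested gene in 8 lists, one point per gene, coloured by call, with a bar at each list's median and a dashed line at the median of all tested ends. The p53 list lies to the right with a median of 2.10, and the mitosis and NRF2 lists lie to the left with medians of -0.72 and -0.80.

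Most NRF2 targets fell. NRF2 is the transcription factor for antioxidant and pentose phosphate enzymes, and A549 cells are known for its constant activity. Of 18 genes 17 were tested, 14 fell, none rose and the median change was -0.80, against 10.0% of all tested ends fallen. Without the pairing 7 fell, and without pair 2 the number was 9. TKT, a pentose phosphate enzyme, stood at 2018, 2057 and 2185 CPM in DMSO and at 1284, 1074 and 1098 CPM in cisplatin, a change of -0.86 ± 0.10 (adjusted p = 2.5e-05). HMOX1, which breaks down haem, went from 138, 203 and 206 CPM to 69.8, 78.3 and 87.6 CPM. ME1, which makes NADPH from malate, fell by 1.59 on the log2 scale.

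Abundant NRF2 targets were not all lower. NQO1, a quinone reductase, changed by -0.13 (adjusted p = 0.37), from 2674 to 2443 CPM, and TXN, thioredoxin, by 0.00. AKR1C1, AKR1C2 and AKR1C3 are near-identical neighbours and their ends could share reads, so their falls of -0.83, -1.0 and -0.80 are uncertain as separate values. The third libraries held less of this AKR1C2 end in both groups (2005 against 4166 and 4171 CPM in DMSO), and its adjusted p without the pairing was 0.13. A weaker end within 2 kb of the placed AKR1C2 position, at chr10:5029955-5030482 on the minus strand, changed by -2.21.

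Mitosis genes also fell. Of 24 tested genes 15 fell, none rose and the median change was -0.72, against 10.0% of all tested ends fallen. Without the pairing 9 fell. PLK1, the kinase that drives mitotic entry, stood at 108, 121 and 148 CPM in DMSO and at 43.1, 48.5 and 50.1 CPM in cisplatin, with no overlap. Its change was -1.40 ± 0.12 (adjusted p = 2.0e-06). AURKA, a spindle kinase, fell by 1.1 and KIF11, the spindle motor, by 1.15. CDK1, the kinase of cyclin B, was not called, at 37.5 CPM in DMSO and 41.5 CPM in cisplatin.

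Stress genes that follow ATF4, the integrated stress response, were mostly lower. Of 15 tested genes 8 fell and 1 rose, against 10.0% and 8.64% of all tested ends, and the rising one, SESN2, is also in the p53 list. ATF4 itself went from 272, 319 and 314.5 CPM to 166, 118 and 250.3 CPM, a change of -0.83 (adjusted p = 0.0015). TRIB3, a pseudokinase induced by ATF4, fell by 1.09. Without the pairing 2 of these genes fell, and also 2 without pair 2, so 8 rests on the pairing and on that pair, and 2 of 15 is near the share of all tested ends. Of the 14 tested early response genes 4 rose and 6 fell, against 8.64% and 10.0% of all tested ends. FOSL1 (1.16), FOSL2 (1.06) and IER5 (1.07) were among the risen and KLF10 (-1.51), MYC (-1.26) and KLF6 (-1.21) among the fallen, all transcription factors or regulators with short-lived RNA. Without the pairing 2 rose and 2 fell, near the share of all tested ends, and without pair 2 the counts were 3 and 3.

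Of 23 tested genes for repair of platinum adducts 3 rose and 4 fell, with a median of -0.17. These counts are near the 8.64% risen and 10.0% fallen of all tested ends and say nothing particular about repair genes. DDB2 and XPC, which find damage for nucleotide excision repair and also stand in the p53 list, rose by 1.81 and 1.33, and ERCC5, the nuclease that cuts beside the lesion, rose by 0.85. ERCC1, a partner in the other cut, fell from 4.41, 3.41 and 6.70 CPM to 2.31, 1.15 and 1.501 CPM. BRCA1 (-1.03) and MSH6 (-0.80) also fell. Of the 4 that fell, only BRCA1 was called without the pairing, and without pair 3 the number fallen was 2.

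The factors that make 3′ ends did not stand out. Of 20 tested cleavage and polyadenylation factors 2 rose and 1 fell, against 8.64% and 10.0% of all tested ends, with a median of -0.14. These counts are near the shares of all tested ends and say nothing particular about these factors. CLP1, an RNA kinase of cleavage factor II, stood at 9.63, 13.2 and 12.4 CPM in DMSO and at 28.2, 38.3 and 79.2 CPM in cisplatin, a change of 1.91. PAPOLA, the poly(A) polymerase, fell by 0.66 and RBBP6 rose by 0.59. CDK12 and PCF11, regulators of early poly(A) sites, had no tested end.

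The 10 largest falls were a different kind of gene. All were ends of genes known to be long on the genome, of varied function, and none belongs to a list above: FARS2 (mitochondrial phenylalanine tRNA synthetase), TBC1D5 (membrane traffic), EXOC4 (exocyst), STX8 (vesicle fusion), BABAM2 (a partner of BRCA1), NRCAM (cell adhesion), XXYLT1 (a glycosyltransferase), TBL1X (corepressor), SND1 (an RNA-binding nuclease) and CSGALNACT1 (chondroitin synthesis). FARS2 stood at 15.2, 16.3 and 17.2 CPM in DMSO and at 1.28, 0.96 and 2.40 CPM in cisplatin, at chr6:5771561-5771819 on the plus strand. The change was -3.45 ± 0.32 (SE) with an adjusted p of 3.9e-06. SND1, the strongest of them, stood at 99.1, 90.8 and 106 CPM in DMSO and at 18.5, 11.3 and 12.9 CPM in cisplatin.

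The same shape recurred at the others. TBC1D5 went from 20.9, 21.6 and 21.7 CPM to 2.31, 1.34 and 2.40 CPM, EXOC4 from 39.1, 30.3 and 36.0 CPM to 1.54, 3.45 and 5.10 CPM, and STX8 from 30.5, 27.4 and 43.7 CPM to 2.05, 2.11 and 6.60 CPM. In none of the 10 did a cisplatin library reach a DMSO library, which the naming rule required. The changes ran from -3.45 to -2.80, and all 10 were called with and without the pairing, without any pair and by DESeq2. The next tested end upstream of FARS2 on its strand lay 792246 bases away, that of TBC1D5 711454 and that of SND1 500900, and 7 of the 10 had no tested end within 185760 bases upstream. The same held for 5 of the 10 largest rises and for 5804 of all 23215 tested ends with an end upstream.

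In several long genes an upstream end did not follow the last one. At XXYLT1 an end 62345 bases upstream stood at 3.01, 4.73 and 5.10 CPM in DMSO and at 4.88, 4.21 and 4.50 CPM in cisplatin (change 0.10 ± 0.32), whereas the last end went from 21.9, 20.2 and 23.3 CPM to 4.36, 2.68 and 1.80 CPM (-2.86 ± 0.27). The upstream end thereby held 16.4% of the counts of these ends in DMSO and 60.6% in cisplatin. ADK (adenosine kinase), THSD4 (a matrix protein) and EXT1 (heparan sulphate synthesis) showed the same, with last tested ends at -2.64, -2.69 and -2.58 and upstream ends at 0.23, 0.46 and 0.77, none of the upstream ends called. These upstream ends were weak, at 1.13 to 5.10 CPM in every library, and 22 to 76 bases wide against a median of 222 for all tested ends.

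CHCHD3, a protein of the mitochondrial inner membrane, had an upstream end at 1375 to 1558 CPM in DMSO, a level that need not come from its own transcripts, which changed by 0.27 while the last end changed by -2.59. NRP1, a receptor for semaphorins and VEGF, held 5 tested ends. Its changes, from the most upstream to the last, were -1.13, 0.51, -1.27, 0.02 and -2.48, so they followed no simple order. In CMSS1, TBL1X and NRCAM each tested end fell, including upstream ends at CMSS1 31545 bases before the last. These genes were picked because an end fell, so the difference between their ends was not tested.

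**Figure D3:**
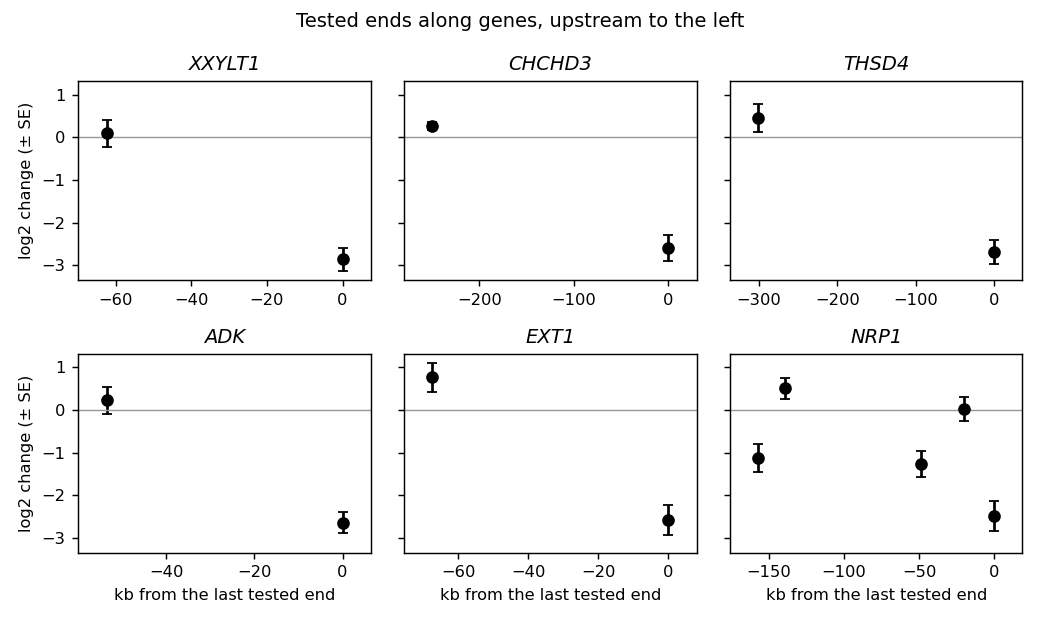
Log2 change with its SE at each tested end of 6 long genes, by distance in kb from the last tested end, with upstream ends to the left. The last end lies between -2.86 and -2.48 in each gene, and the upstream ends of XXYLT1, CHCHD3, THSD4, ADK and EXT1 lie between 0.10 and 0.77.

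A pair of internal ends were among the 10 largest rises. An end inside NRP2, another semaphorin receptor, at chr2:206562401-206562649 on the plus strand, rose from 1.00, 1.70 and 2.55 CPM to 10.0, 12.4 and 24.9 CPM (3.12 ± 0.30, adjusted p = 4.9e-06). The next tested end of that gene, 45799 bases downstream, was not called (-0.45, at 1.20 to 3.83 CPM in DMSO). An end inside FOCAD, a focal adhesion protein, rose from 1.60, 0.95 and 2.55 CPM to 7.70, 10.53 and 21.01 CPM. DPYSL4, a p53-responsive gene outside the list, rose by 3.14. The largest rise of all was at chr16:59122737-59123003 on the plus strand, where no gene was placed. It stood at 1.20, 1.32 and 1.91 CPM in DMSO and at 4.62, 77.4 and 89.1 CPM in cisplatin, so 2 cisplatin libraries carry its change of 5.05.

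Whether this shape holds across all ends was asked by the distance from each end to the next tested end upstream, a stand-in for the stretch of gene before it. In each pair the median change of the bin with the longest of 4 equal bins of distance exceeded that of the bin with the shortest, by 0.049, 0.042 and 0.036, a mean of 0.042 (exact two-sided sign-flip test over 3 pairs, p = 0.25, the smallest the design allows). With 10 bins in place of 4 the mean difference was -0.0049 (exact p = 0.75). In the bin with the longest of 4 classes of distance 7.56% of ends rose and 10.54% fell, and in that with the shortest 7.06% rose and 11.1% fell. So a general fall at ends after a long empty stretch was not shown. Of the 10 bins, the third had the most falls, 13.2%.

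**Figure D4:**
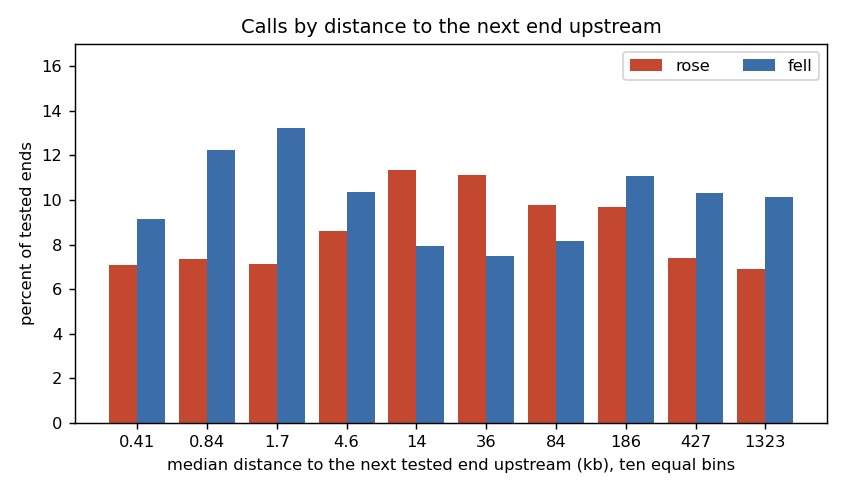
Percent of tested ends that rose (left bars) and fell (right bars) in 10 equal bins by distance to the next tested end upstream, each bin labelled with its median distance in kb. Falls exceed rises in the bins of short and of long distances, with 13.2% fallen in the third bin, and rises exceed falls in between.

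Some neighbouring ends changed relative to one another. Each tested end was compared with the strongest tested end within 20 kb on its strand, which may belong to another gene. Of 10973 such pairs 583 changed (5.31%), 255 with the weaker end gaining and 328 with it losing, and 173 changed when the replicate number was left out of the fit. Without pair 2 the count was 236 and without pair 3 it was 308. Where the weaker end lay upstream, 141 gained and 124 lost. Where it lay downstream, 114 gained and 204 lost, with a median of -0.11 on the log2 scale against 0.02 for upstream ends. Pairs are not independent, since the 4146 downstream pairs share 2738 stronger ends. Of the 204 downstream losses, 84 had only the weaker end called and 72 only the stronger end. The difference between the upstream and downstream splits was not tested.

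Genes were placed at both ends in only some of the pairs named here, so whether both ends lie in 1 gene is not known for the others. FRMD8 and NEAT1, a nuclear long noncoding RNA whose short form has a poly(A) tail, lie next to each other. The share of FRMD8 in their counts was 4.796%, 5.11% and 3.89% in DMSO and 22.7%, 29.5% and 58.6% in cisplatin (log2 change 3.36 ± 0.31, adjusted p = 1.1e-06). NEAT1 went from 108, 126 and 86.8 CPM to 54.2, 36.2 and 18.9 CPM, and FRMD8 rose by 1.76. EID3, a small gene within another on the genome, rose by 2.09 while the strong end 13854 bases downstream fell by 1.27, and its share went from 1.18% ± 0.18 (SD, n = 3) to 10.4% ± 1.38. The third shift up was at chr7:1151085-1151267 on the minus strand, from 7.27% ± 2.97 to 35.2% ± 23.8.

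Among the largest shifts down, the share of STK40, a pseudokinase, against its neighbour EVA1B went from 68.8%, 65.0% and 26.4% to 23.9%, 15.6% and 3.93%, as STK40 fell by 1.15 and EVA1B rose by 1.90. A minus-strand end at chr2:85554048-85554767 lost share to RETSAT, a retinol saturase, whose end rose by 2.2. An end upstream of EID3 lost share to EID3 (-3.19), so the EID3 end stands in a shift of each direction.

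The same ends were then read in the other cisplatin experiments, with the change in the other set minus that in A549 cytosol tested as an interaction. In A549R cytosol 0 of 16962 ends differed (0%), with 712 at an unadjusted p under 0.05, and 1 by DESeq2. In heavy polysomes of A549 0 of 17880 differed (0%), with 559 at an unadjusted p under 0.05, and 0 by DESeq2. The median SE of a difference was 0.36 in both, so these counts do not show that the responses were alike. The A549R lists hold 76.0% to 77.5% of their own peak numbers, against 31.6% to 35.2% in A549 cytosol. Without the pair numbered 3, which is also the pair with the short polysome lists, 12 and 17 ends differed. CDKN1A rose by 3.48 in A549R and by 3.85 in polysomes, differences of -0.06 ± 0.33 and 0.29 ± 0.18 (SE) from A549 cytosol. TBC1D5 fell by 2.94 in A549R and by 3.43 in polysomes. BABAM2 fell by 1.99 in A549R, a difference of 1.00 on the log2 scale that did not pass.

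In H358 whole cells 1668 of 12349 ends differed (13.5%), 808 with a higher change in H358 and 860 with a lower one, and 472 differed without the pairs numbered 1. H358 RNA came from whole cells. The H358 lists hold 73.1% to 79.4% of their own peak numbers, against 31.6% to 35.2% in A549 cytosol. Line, extract and the filtering of the lists therefore cannot be told apart here. CDKN1A rose by 2.28 in H358, a difference of -1.16 ± 0.23 (adjusted p = 0.0029). FDXR rose by 0.79 there, a difference of -2.61, and ISG15 changed by -0.15, a difference of -3.26 ± 0.33 (adjusted p = 5.8e-06). At the ends of long genes, SND1 fell by 2.45 in H358 and BABAM2 by 2.66, with differences of 0.43 ± 0.39 and 0.43 ± 0.47 (SE) on the log2 scale, neither called. EXOC4 fell by 2.46 and STX8 by 1.94, differences of 1.02 and 1.48 that were not called either (adjusted p = 0.27 and 0.065).

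**Figure D5:**
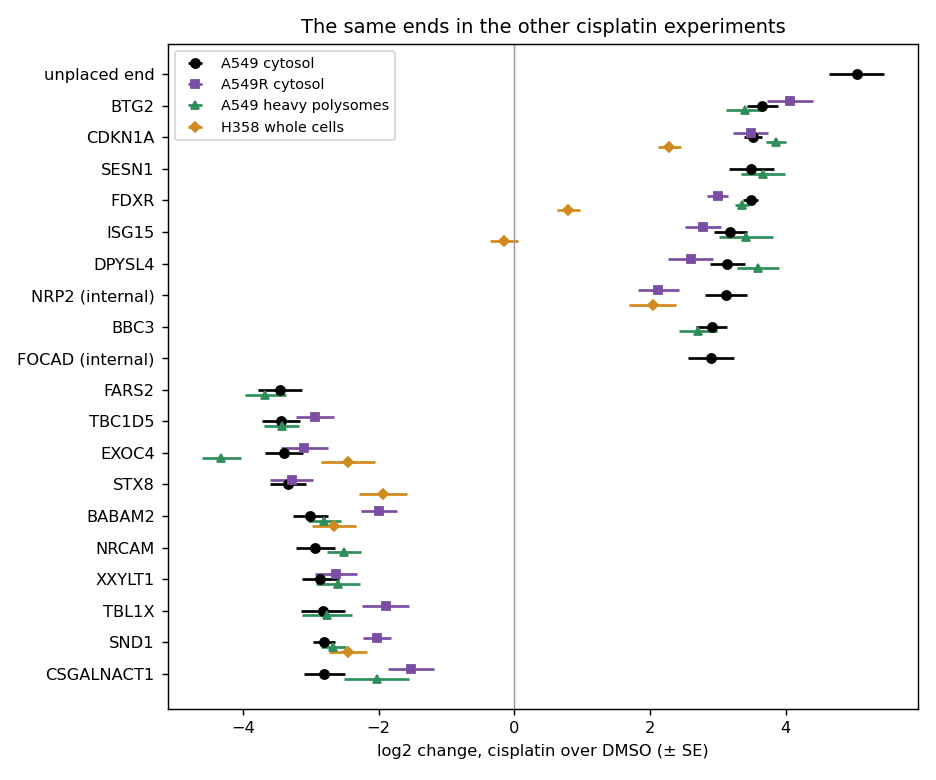
Log2 change with its SE at the 20 named ends in A549 cytosol (circles), A549R cytosol (squares), A549 heavy polysomes (triangles) and H358 whole cells (diamonds), where the end was listed in every library of that set. The H358 values of CDKN1A, FDXR and ISG15 (2.28, 0.79 and -0.15) lie left of the A549 values, and the values at the falling ends lie below 0 in each set.

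ID2, an inhibitor of differentiation factors, differed most in the upward direction. It fell in A549 from 123, 156 and 229 CPM to 69.7, 51.5 and 87.5 CPM and rose in H358 from 13.7, 12.95 and 10.3 CPM to 95.1, 144 and 138 CPM, a difference of 4.58 ± 0.28 (adjusted p = 1.8e-07). NKD2, a regulator of Wnt signalling, fell in H358 from 53.1, 35.7 and 53.7 CPM to 4.50, 3.67 and 4.41 CPM. In A549 it stood at 5.89, 3.62 and 8.09 CPM in DMSO and at 7.51, 5.36 and 24.1 CPM in cisplatin, groups that overlap, and the difference was -4.38 ± 0.41 (adjusted p = 2.7e-06).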

How the data were processed

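Transcript 3′ ends were measured by 3′-seq in 3 cisplatin and 3 DMSO libraries of A549 cytosol, and in 18 further libraries for comparison. The authors deposited a peak list per library with a raw read count for each peak, not normalized, and the smallest count in a list is 5. Per the labels' protocols, RNA was fragmented, primed with anchored oligo-dT and amplified by PCR, and no molecular identifiers are described. Per the submitters' processing notes, Bowtie2 2.2.5, SAMtools 1.1 and bedtools 2.17.0 were used. What each did, and the peak caller, are not stated there. The notes name the build mm9, but chromosome names and positions fit human hg19, as which they were read.

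Peaks overlapping by at least 1 base on a strand were merged and counts summed per library. Ends listed in all 6 libraries were tested with edgeR 4.0.16 (R 4.3.3) by the quasi-likelihood test, with TMM scaling, the replicate number as a block and Benjamini-Hochberg adjustment at 0.05. Tested ends carry most of each library's counts, and PCR reads are not independent molecules. The labels give same numbers but state no pairing. Deviations from the group mean correlated at 0.29, 0.27 and 0.44 between same-numbered libraries, the highest for each library, and the numbers were taken as pairs. Alternatives were no block, DESeq2 1.42.0, other scaling, filters and merging, and leaving out libraries. On simulated counts with known changes in the main comparison (23269 ends), 97% of 4-fold and 57% of 2-fold changes were called and 0.039% of unchanged ends. The simulated shifts were shared by same-numbered libraries, as the paired test assumes. These percentages therefore do not measure the error of the calls in the real libraries.

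No hg19 annotation was at hand, so the comparison of internal ends with last exons was replaced by that of ends within 20 kb, and gene length by the distance to the next tested end upstream. Genes were placed by hand from general knowledge of hg19 ends, and an end within 2 kb took the name. All 278 symbols stood on the same chromosome in RefSeq (GRCh38.p14), and the strand matched for the 209 that could be compared. The remembered positions were also held against the RefSeq gene ends for a locally constant offset, and no position was converted. The placed end of NEAT1 was corrected, and several neighbours named, after values were seen. The members and lists were chosen with earlier results of these data known. Named ends are the 10 largest rises and 10 largest falls with adjusted p under 0.05, at least 10 CPM in the higher group, no overlap and one direction in 3 pairs, and the 3 largest each way for relative use and for differences. Lists are named with the examples of smallest adjusted p, and further members, genes with several ends and other list genes were chosen after their values were seen. A few genes counted in the lists are not reported by name here.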

Additional observations from a re-analysis of the deposited data

Results flagged for a closer look

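Several ends responded to cisplatin differently in H358 whole cells than in A549 cytosol, by a test of the difference itself, with values given as the H358 change minus the A549 change on the log2 scale. They were ID2 (4.58), chr19:48437440-48437557 (4.17) and chr19:48448181-48448292 (4.07), both on the plus strand, then NKD2 (-4.38), chr1:96912830-96913690 on the plus strand (-4.84) and chr10:82006736-82007419 on the minus strand (-4.88). The chromosome 1 end stood at 194, 238 and 10.3 CPM in the H358 DMSO libraries, so its level there rests on 2 libraries. Among the leading rises, ISG15 (-3.26), FDXR (-2.61) and CDKN1A (-1.16) also differed. Line, extract and the filtering of the lists cannot be told apart in these values.

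Ends listed in each cisplatin library and in no DMSO library numbered 452, and 906 were listed in each DMSO library and in no cisplatin library. They were not tested, since an unlisted end is not a count of 0. The cisplatin ends with the highest counts were chr10:5041390-5041498 on the minus strand (2082, 2264 and 761 reads) and chr10:79795267-79795589 on the plus strand (1004, 1178 and 810 reads). Among the DMSO ends the highest was chr3:96337096-96337341 on the minus strand (360, 489 and 562 reads).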

How the results depend on the processing

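The 20 named ends kept their direction and their side of the threshold without the replicate block, with RLE scaling, with DESeq2 and without each pair. Counts depended on the settings. The 4338 calls became 1084 with no replicate block, 2124 with DESeq2 and 22 with ends listed in at least 2 libraries of each group. They ran from 1952 to 5174 without 1 pair and, with no replicate block, 335, 176 and 1082 without the DMSO libraries 1, 2 and 3 and 1294, 133 and 565 without the cisplatin libraries 1, 2 and 3. RLE scaling (4340), a mean count of at least 20 (3918) and merging within 50 bases (4221) left the count within 1.5 times. The 583 shifts between neighbouring ends became 173 with no replicate block, 250 with neighbours within 5 kb, 1142 within 50 kb and 236 to 597 without 1 pair. Against A549R, 0 became 1 with DESeq2 and 1 to 12 without 1 pair. Against polysomes it became 0 to 17 without 1 pair. Against H358, 1668 became 627 with no replicate block and 472 to 1217 without 1 pair. The gap difference of 0.042 reversed to -0.0049 with 10 bins, and RLE left it the same by construction, since a library factor cancels. The cause of these moves was not tested. Depth limits the weak ends, many at a few reads per library.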
